A study of Mus musculus with 4 samples.

Results

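Gene desert peaks are called peaks of PRDM6 chromatin immunoprecipitation (ChIP), not shown binding sites, that lie far from the gene assigned to them. They were the peaks that the deposited annotation called distal intergenic and placed over 300 kb away from its assigned gene's transcription start site (TSS). The rule took 643 of 13977 peaks (4.60%) and 643 of the 5200 distal intergenic peaks (12.4%), and it used no measure of binding. They lay on 20 chromosomes and were assigned to 242 genes. The cells were cultured smooth muscle cells (SMCs) of the outflow tract, the vessels that leave the heart, from mouse embryos late in gestation. The study's cell culture methods give the aortic arch and ductus arteriosus of embryos with floxed Prdm6 alleles (Prdm6fl/fl) as their source. The cells carried a lentivirus that overexpressed FLAG-tagged PRDM6, and chromatin digested with micrococcal nuclease and sonicated was precipitated with an anti-FLAG antibody. There were 2 PRDM6 ChIP libraries and 2 Input libraries, the latter of chromatin that was not precipitated, and all of them came from the same infected cell type, so no uninfected cells entered a comparison. The peaks are therefore those of an overexpressed tagged protein and not of endogenous PRDM6. The study calls the immunoprecipitations independent replicates in one place and describes them as from 1 sample in another, so the spread between them may be technical.

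Gene deserts are long stretches of the genome between protein-coding genes. Some deserts beside developmental genes are known to hold enhancers, short regulatory sequences that act on a promoter over a long distance by looping of the chromatin, and a gene may be controlled over the head of a nearer one. PRDM6 is a PR domain protein with zinc fingers that is expressed in SMCs. AP-1 is a dimer of Fos and Jun proteins, and TEAD proteins are the DNA-binding partners of the cofactors YAP and TAZ. Both are known to bind enhancers in many cell types, and SRF, which binds the CArG box, drives contractile genes in SMCs.

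The sequences below are of mm10, plus strand, and were chosen because an AP-1 or TEAD motif lay within 100 bp of the summit in the strongest gene desert peaks that had one. Capitals mark the motif. The AP-1 motif was searched as TGACTCA or TGAGTCA, and the TEAD motif as AGGAATGC, AGGAATGT, GGGAATGC or GGGAATGT, on both strands. The sequences at Gm29683, Cd180 and Adamts5 hold an AP-1 motif, and the others hold a TEAD motif, which reads on the minus strand at Gm20125 and Dipk2a. The sequence at Dipk2a also holds an AP-1 motif, left in lower case since it lay farther from the summit. Each name is that of the gene assigned to the peak by the deposited annotation. The −log10 p-values of the peaks at Cd180, between Pik3r1 and Cd180, and at Dipk2a, between Plod2 and Dipk2a (1190002N15Rik in GENCODE M21), were 16.9 and 13.9 in the first of the listed replicates and 13.7 and 12.8 in the other, and those of the rest follow with their deserts.
Gm29683, chr7:70037158-70037224: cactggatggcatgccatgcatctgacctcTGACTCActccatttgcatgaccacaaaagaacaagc
Gm20125, chr10:16553475-16553542: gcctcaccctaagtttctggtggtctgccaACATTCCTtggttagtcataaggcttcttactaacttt
Cd180, chr13:102240273-102240339: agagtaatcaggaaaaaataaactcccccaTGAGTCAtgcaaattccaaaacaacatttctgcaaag
Gm11217, chr4:64635679-64635746: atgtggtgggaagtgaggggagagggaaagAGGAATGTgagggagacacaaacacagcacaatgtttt
Dipk2a, chr9:93856258-93856325: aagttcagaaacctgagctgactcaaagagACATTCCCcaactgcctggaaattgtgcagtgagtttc
Adamts5, chr16:86348163-86348229: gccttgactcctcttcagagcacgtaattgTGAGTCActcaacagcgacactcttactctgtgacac

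The strongest gene desert peak of all had no such motif anywhere in its 1100 bp. It is shown here over 75 bp on each side of its summit, with no capitals, because it stood apart from the other 642 in strength. The shorter TEAD core GGAATG, counted only after values had been seen, occurred 2 times in that peak.
B230303A05Rik, chr13:16670389-16670539: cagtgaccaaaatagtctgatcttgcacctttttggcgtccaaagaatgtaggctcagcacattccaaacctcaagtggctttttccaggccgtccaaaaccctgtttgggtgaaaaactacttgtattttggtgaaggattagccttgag

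The distance between a gene desert peak and the TSS of its gene had a median of 453 kb, with quartiles of 353 kb and 597 kb. It was more than 500 kb at 263 peaks (40.9%) and more than 1 Mb at 37 (5.75%). The peaks lay on both sides of their genes, 316 upstream (49.1%, 95% Wilson interval 45.3% to 53.0%) and 327 downstream. Intervals of shares cover counting error over peaks only, since peaks are not replicates. The farthest peaks, with distances of 2010 kb, 2005 kb and 1973 kb, were all assigned to Gm32455 on chromosome 14. They began at 82064636, 82069388 and 82101927, in the 4420 kb between Olfm4 and Pcdh17, and had matched −log10 p-values of 4.39, 4.95 and 8.52. Just inside the limit were a peak 300041 bp from Gm15217 (−log10 p 6.39) and one 300156 bp from Irak1bp1 (5.10). Just outside it were one 299808 bp from Isl1 (9.37) and one 299647 bp from Mat2b (5.10).

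To describe the deserts in which these peaks lay, their distances were measured again in the basic gene set of GENCODE M21. Counted from protein-coding genes, 629 of the 643 (97.8%) lay more than 300 kb from a TSS, at a median of 513 kb. Counted from genes of every type, only 19 (2.95%) did, and the median was 59.3 kb. The nearest TSS was that of a processed pseudogene at 311 peaks (48.4%) and of a lincRNA, a long intergenic noncoding RNA, at 148 (23.0%), and that of a protein-coding gene at 2. A TSS of some kind was within 3 kb of 17 peaks (2.64%). The peaks thus mostly lay far from protein-coding genes, which the distance rule largely ensures. The nearest TSSs were mostly those of pseudogenes and noncoding transcripts, and at 4 peaks that of a T cell receptor V gene. Only 3 of the 643 peaks overlapped a transcript, and all 3 overlapped the lincRNA Gm6634 between Otol1 and Sis on chromosome 3. The strongest of these, at 70807068 to 70807667, had a −log10 p-value of 12.95 in the first-listed and 12.76 in the second-listed replicate, and the others had matched values of 5.56 and 3.50.

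The density of peaks in such sequence was compared with that in sequence nearer to genes. All 13977 peaks were counted per Mb of known sequence by the distance to the nearest TSS. Beyond 300 kb of a protein-coding TSS there were 2.73 peaks per Mb (95% Poisson interval 2.58 to 2.88), which was 1329 peaks (9.51%) in 19.04% of the sequence. Between 100 kb and 300 kb there were 5.04 (4.86 to 5.23), between 20 kb and 100 kb 5.96 (5.80 to 6.13), and up to 20 kb 7.13 (6.93 to 7.33). The density fell at each step, and the intervals did not overlap. These intervals treat peaks as independent, though all peaks came from the same pair of libraries. Whether reads map less well far from genes was not tested. With the TSSs of all genes, the density fell from 6.32 to 4.98, 3.38 and 2.15 peaks per Mb, and the last value rested on 42 peaks in 19.6 Mb (1.55 to 2.90).

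**Figure D1:**
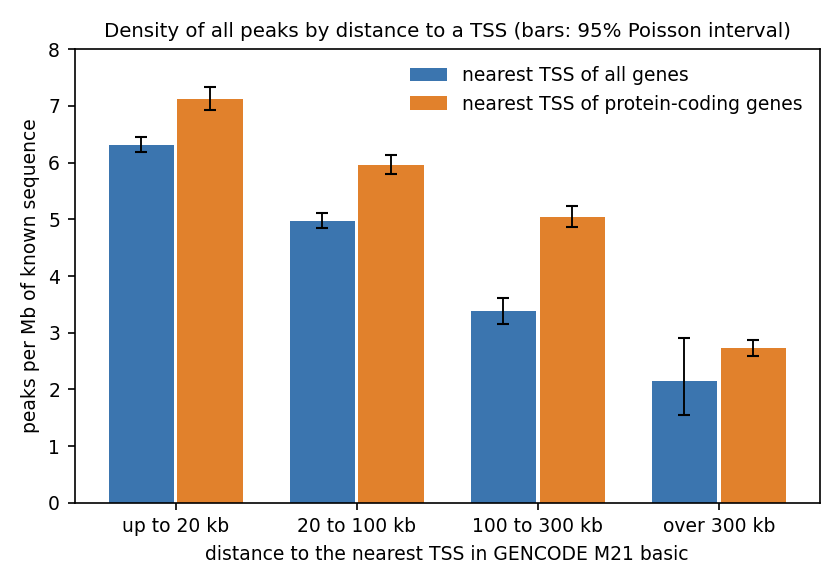
Peaks per Mb of known sequence (vertical axis) by distance to the nearest TSS (horizontal axis), for TSSs of all genes in blue and of protein-coding genes in orange, with 95% Poisson intervals as bars. The lowest bars are those over 300 kb, 2.15 and 2.73 peaks per Mb.

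The strength of gene desert peaks was compared with that of other peaks, to see whether remote peaks were weaker. Strength here is the −log10 p-value of the peak caller, which each replicate gave for each peak, and the smaller of the 2 is the matched value. The gene desert peaks had a median matched value of 5.53, with quartiles of 4.39 and 6.89 and a range of 3.03 to 28.5, and over all 13977 peaks the median was 5.53 as well. In the first-listed replicate the medians were 6.92 and 6.92. In the second-listed replicate they were 6.39 for the gene desert peaks and 6.61 for all peaks. Among distal intergenic peaks closer to genes, the median matched value was 5.69 up to 20 kb. It was 5.68 from 20 kb to 100 kb and 5.69 from 100 kb to 300 kb. No test was made, since peaks are not replicates of a condition. The first-listed value was the higher at 381 gene desert peaks (59.3%), against 52.1% of all peaks. The values of the replicates differed at least 2-fold at 82 gene desert peaks (12.8%, against 12.9% of all peaks). Their Spearman correlation was 0.251 over the 643 peaks and 0.263 over all peaks, a description over peaks that came from the same pair of libraries.

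**Figure D2:**
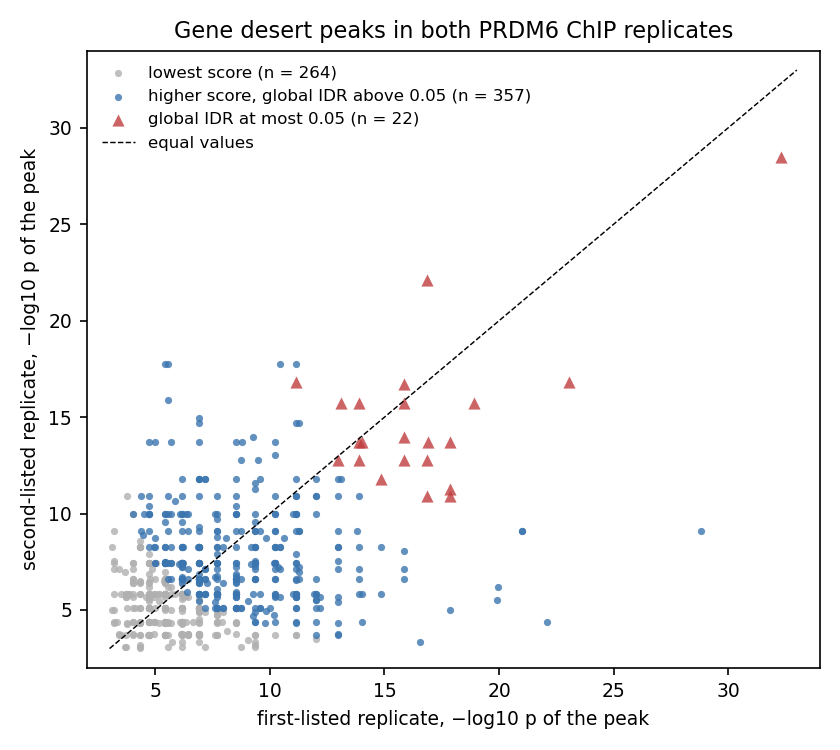
The −log10 p-value of each of the 643 gene desert peaks in the first-listed (horizontal axis) and second-listed (vertical axis) replicate, with the 264 peaks of the lowest score in grey, the 22 with a global IDR of at most 0.05 as red triangles and the line of equal values dashed. The peak at 32.3 and 28.5 stands apart, and values fall in rows and columns because heights are whole numbers of fragments.

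The global IDR (irreproducible discovery rate) of a peak estimates, from how peaks rank in each replicate, the expected share of irreproducible peaks among those ranked at least as high. A global IDR of at most 0.05 was reached by 22 gene desert peaks (3.42%, 95% Wilson interval 2.27% to 5.13%), against 3.33% of all peaks. At the limit of 0.01 there were 4 (0.622%, 0.242% to 1.59%), against 0.994% of all peaks. The lowest score in the list, 48, was held by 264 gene desert peaks (41.1%) and by 41.4% of all peaks. These shares were near those of the whole list, and the intervals of the gene desert shares held the whole-list values. The 22 peaks lay in 22 different gaps between protein-coding genes and were assigned to 22 genes. None of the 37 peaks beyond 1 Mb was among them, but 37 peaks are too few to show a share below 3.33%. A global IDR above 0.5 was found at 396 of the 643 (61.6%), against 59.1% of all peaks and 56.9% of distal intergenic peaks.

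The list gave no read totals, and only part of the depth could be recovered. Where the p-value rested on the genome-wide background, which was so at 429 gene desert peaks (66.7%) in the first-listed and 420 (65.3%) in the second-listed replicate, the height could be read back. The median height was 14 fragments and 13 fragments, 5.36 and 5.45 times the mean background of 2.61 and 2.39 fragments. For all peaks, the shares on that background were 58.3% and 63.5%. Chromosome 15 differed, with 30% and 20% of its 30 gene desert peaks on that background, and its median matched value was 5.06. The part of local background in the values of that chromosome was not tested.

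The strongest gene desert peak, at chr13:16670079-16671178, had −log10 p-values of 32.3 in the first-listed and 28.5 in the second-listed replicate. It lay in the 826 kb between Inhba, which encodes a subunit of activins and inhibins, and Sugct, and was assigned to B230303A05Rik, 646656 bp away. Its summits in the replicates were 33 bp apart, and both values exceeded those of every other gene desert peak. That gap held 9 gene desert peaks, and their matched values had a median of 5.84 and a lowest value of 4.11.

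Btbd3 had the next peak, at chr2:137924291-137926017, with values of 16.8 and 22.1. It lay 330548 bp upstream of Btbd3, in the 1140 kb between Jag1 and Btbd3. Jag1 encodes a ligand of Notch receptors. A peak assigned to Jag1 in the same gap, at chr2:137430615-137431872, had values of 13.1 and 11.8 and lay 313971 bp upstream of it. Its score of 536 was just under 540, the score that stands for an IDR of 0.05. The gap held 9 gene desert peaks, 7 of them assigned to Jag1, and the median of the 9 matched values was 4.39.

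A peak at chr19:19783035-19784261, between Rorb and Anxa1, had values of 23.1 and 16.8 and was assigned to 1500015L24Rik. The fourth peak with an IDR of at most 0.01, at chr13:6192501-6194319, lay 327823 bp downstream of the TSS of Klf6 and had values of 18.9 and 15.7. Klf6 encodes a zinc finger transcription factor. In all, Klf6 had 4 gene desert peaks within 28.9 kb of each other, and their matched values were 15.7, 8.25, 6.15 and 4.71. All 4 scored above the lowest score, and 2 of them held an AP-1 motif.

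The other peaks among the strongest were spread over several deserts. The peak of Gm29683, whose AP-1 sequence is shown above, lay at chr7:70036411-70037356 between Arrdc4 and Nr2f2, which encodes an orphan nuclear receptor of vascular development, and had values of 15.8 and 16.7. The peak of Gm20125, with the TEAD sequence, lay at chr10:16552952-16554177 between Nmbr and Cited2, and its values were 15.8 and 15.7. A peak between Osr1 and Nt5c1b, at chr12:9978460-9979806, had values of 15.8 and 13.97.

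Tbl1xr1, which encodes a subunit of a corepressor complex, had a peak at chr3:21478385-21479659 with values of 13.9 and 15.7. Next came 4 peaks with the same matched value of 13.7, assigned to Cd180, Zfp608, Gm11217 and Mtpn. Their first-listed values were 16.9, 17.9, 14.01 and 13.9. The peak of Gm11217, whose TEAD sequence is shown above, lay between Tnc, which encodes the matrix protein tenascin C, and Pappa. Replicate summits could lie apart even here, by 791 bp at Zfp608 and 514 bp at Tbl1xr1, while at Mtpn they were 3 bp apart.

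How the peaks fell among deserts was examined by the gaps between neighbouring protein-coding genes. All 643 lay in such gaps, 183 in number with a median length of 1233 kb, and 501 peaks (77.9%) lay in 117 gaps longer than 1 Mb. The distance rule favours long gaps, so these values describe the peaks it took and test nothing. A single gene desert peak was found in 63 gaps, 5 or more in 44 and 10 or more in 11, which together held 158 (24.6%). The genome had 315 gaps longer than 1 Mb, with 582 Mb and 1323 peaks of any kind, and 138 of them held no peak. In 62 gaps the peaks were assigned to 2 or more genes, and these gaps held 400 gene desert peaks (62.2%).

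**Figure D3:**
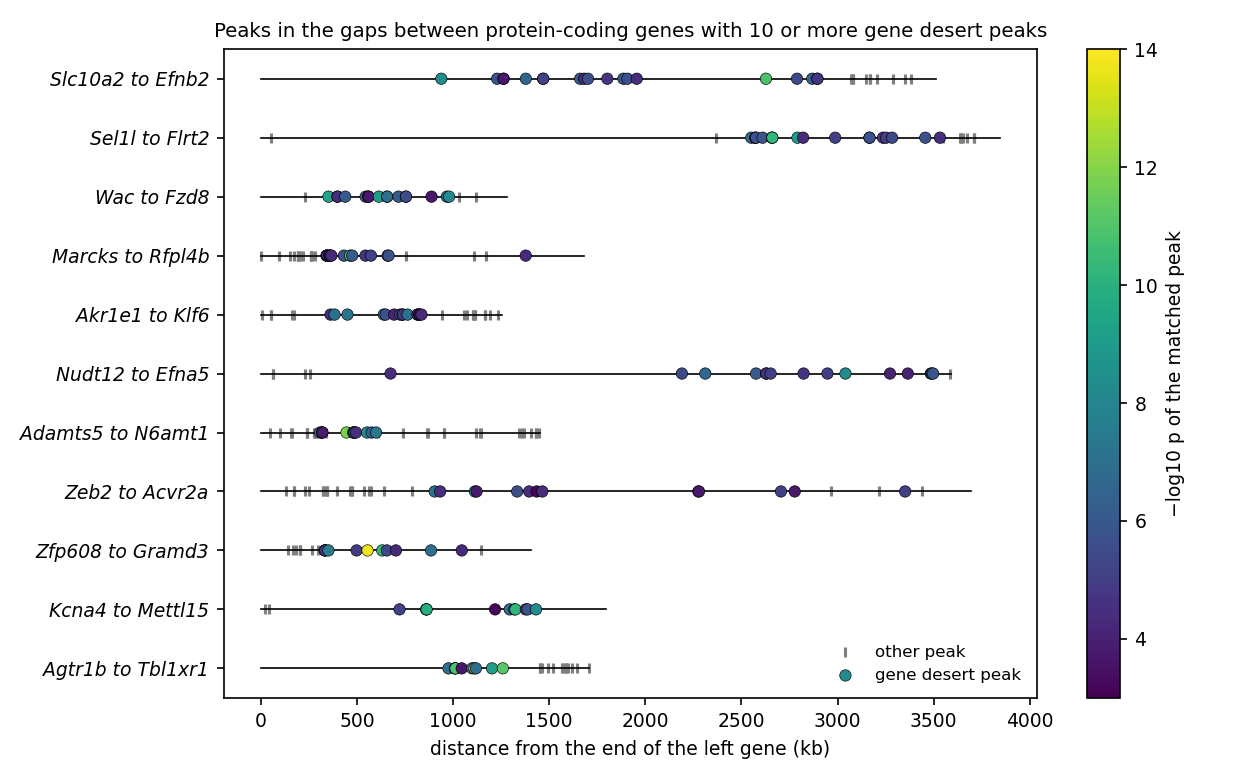
Positions of peaks (horizontal axis, kb from the end of the gene on the left) in the 11 gaps between protein-coding genes with 10 or more gene desert peaks, which are circles coloured by matched −log10 p, with other peaks as grey ticks and the gap as a line. The gap from Slc10a2 to Efnb2 holds 19 gene desert peaks and that from Sel1l to Flrt2 holds 18.

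The gap with the most gene desert peaks, 19 of its 30 peaks, was the 3512 kb between Slc10a2, a bile acid transporter, and Efnb2 on chromosome 8. Efnb2 encodes an ephrin, a membrane-bound ligand of Eph receptors that marks arterial endothelium and is also expressed in vascular SMCs. The deposited annotation gave 10 of the 19 to Slc10a2 and 9 to Efnb2. The strongest, at chr8:7732052-7733908 and 905455 bp downstream of the TSS of Efnb2, had values of 11.1 and 10.9. None of the 19 had an IDR of at most 0.05, but 19 peaks are too few to show a share below that of all peaks.

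Sel1l and Flrt2 on chromosome 12 were 3843 kb apart, with 18 gene desert peaks of 28 peaks in all. Of these, 10 were assigned to Mir8099-1 and 8 to Flrt2, which encodes a cell surface guidance protein. The 8 peaks of Flrt2 had matched values of 4.55 to 5.84, and the 10 of Mir8099-1 had values of 3.73 to 10.2. Efna5, another ephrin, had 14 gene desert peaks, the most of any gene, in the 3591 kb between Nudt12 and Efna5 on chromosome 17. They lay 370 kb to 1677 kb downstream of its TSS. Their first-listed values ran from 3.70 to 19.9, their second-listed values from 3.08 to 13.97, and their matched values had a median of 4.99. The highest first-listed value, 19.9, belonged to a peak with a second-listed value of 6.20 (chr17:61588874-61589888).

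In the 1283 kb between Wac and Fzd8 on chromosome 18 there were 17 gene desert peaks of 20 peaks, 9 assigned to Wac and 8 to Fzd8, a Wnt receptor. The median matched value of the 17 was 6.15. Marcks and Rfpl4b on chromosome 10 were 1682 kb apart, with 16 gene desert peaks. Marcks, which encodes a substrate of protein kinase C that binds actin, had 11 of these, all upstream, and the strongest had values of 13.9 and 10.9. On chromosome 13, between Akr1e1 and Klf6, there were 15 gene desert peaks of 31, 12 of them assigned to 1700016G22Rik. Those 12 had matched values of 3.35 to 8.52. These 15 were on the other side of Klf6 from its 4 gene desert peaks described above.

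Adamts5, which encodes a protease that cleaves aggrecan and versican, had 5 gene desert peaks upstream of its TSS. They lay in the 1452 kb between Adamts5 and N6amt1, where 8 more were assigned to Gm32461 and 41 peaks lay in all. The strongest, at chr16:86346963-86348472, whose AP-1 sequence is shown above, had values of 14.9 and 11.8. The others had matched values of 8.06, 6.15, 3.75 and 3.41, and the last 2 had the lowest score. Zeb2 and Acvr2a on chromosome 2, 3697 kb apart, had 13 gene desert peaks, of which 5 were assigned to Acvr2a, an activin receptor. The median matched value of the 13 was 4.39, below the 5.53 of all gene desert peaks.

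The remaining gaps with 10 or more were those from Zfp608 to Gramd3 with 11 gene desert peaks of 19, from Kcna4 to Mettl15 with 11 of 13, and from Agtr1b to Tbl1xr1 with 10 of 23. All 10 of the last were assigned to Tbl1xr1 and their median was 6.92. Among the gaps with 5 or more gene desert peaks, the medians of the matched values ran from 3.89 to 10.9. The highest was that of the gap beside Fgf9, which encodes a fibroblast growth factor. Its 5 gene desert peaks, 411 kb to 531 kb downstream of the TSS, had first-listed values of 13.1, 11.3, 12.03, 12.03 and 7.17 and second-listed values of 15.7, 14.7, 10.9, 5.51 and 4.91. These 5 were also the only peaks assigned to Fgf9. The strongest 2 began at 58499568 and 58498725 on chromosome 14, less than 1 kb apart.

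The spacing of the peaks within deserts was also described. Of the 643 peaks, 415 lay within 50 kb of another gene desert peak. The same count was not made for other peaks, so it shows no trait particular to gene desert peaks. Joined at that distance they made 76 clusters of 3 or more with 273 peaks (42.5%), 71 pairs and 228 single peaks. The largest were 8 peaks in 26.5 kb upstream of Marcks (chr10:37480030-37506567) and 8 in 110 kb assigned to Mir8099-1 (chr12:94400078-94510541). They were followed by 7 in 125.03 kb assigned to 1700016G22Rik (chr13:5248555-5373582), 6 in 56.5 kb assigned to Gm20125 (chr10:16498381-16554830) and 6 in 51.1 kb assigned to Adamts5 and Gm32461 (chr16:86346963-86398086). The median matched values of these clusters were 4.79, 5.77, 5.84, 6.88 and 5.75. Over all clusters the peaks had a median of 5.69, and single peaks had one of 5.42. The cluster upstream of Marcks, the densest of the 5, was also the weakest, and 5 of its 8 peaks had the lowest score.

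The genes assigned to gene desert peaks were grouped by lists of gene names, which do not hold every gene of their class. Guidance and cell adhesion genes accounted for 19 of the 242 genes (7.85%, against 1.92% of the genes of distal intergenic and 1.39% of those of all peaks) and 72 of the 643 peaks (11.2%), against 3.33% of distal intergenic peaks and 3.005% of all peaks. The 4 with the most, Efna5 with 14, Efnb2 with 9, Flrt2 with 8 and Tenm4 with 7, held 38 of the 72. Tenm4 encodes a teneurin, a transmembrane adhesion protein, and its strongest gene desert peak (chr7:95853138-95853994) had values of 17.9 and 10.9. These 4 genes had several peaks each, which are not independent of one another, and no test of the list was made. Fat1 and Ctnna2, with 4 gene desert peaks each, and Nectin3, with 2, were not on the list. The distance rule favours genes beside long gaps, and the compared genes were not limited to such genes. The part of the rule in the share was not tested. The median matched value of the 72 was 5.42, and 1 of them had an IDR of at most 0.05.

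The list of growth factor, hormone and receptor genes had 32 gene desert peaks (4.98%, against 3.10% of distal intergenic and 2.70% of all peaks). They fell to 8 genes (3.31%, against 2.55% and 1.98% of genes), led by Fzd8 with 8, Jag1 with 7, and Fgf9 and Acvr2a with 5 each. Ins1, with 2 gene desert peaks, and the receptor genes Chrm3 and Nmur2, with 3 each, were not on that list. The list of developmental transcription factors had 24 gene desert peaks (3.73%, against 2.69% of distal intergenic and 3.94% of all peaks). They fell to 12 genes (4.96% of the 242, against 2.34% of the genes of distal intergenic and 2.37% of those of all peaks). Trps1, with 7 gene desert peaks, and Osr1, with 1, were not on that list. Klf6, Klf4 and Sox11 had 4 each and Isl1 had 2. Klf4, a factor known to repress contractile genes in SMCs, had its strongest gene desert peak 533657 bp upstream (chr4:56066123-56066677), with values of 11.02 and 9.98. Isl1, a factor of cardiac progenitors, had peaks with values of 8.08 and 8.72 at 422349 bp and of 10.2 and 6.61 at 300442 bp downstream. Sox11, which encodes an SRY-related factor, had matched values of 6.92, 6.61, 4.04 and 3.70.

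Matrix, integrin and matrix protease genes had 13 gene desert peaks (2.02%, against 2.56% of distal intergenic and 2.59% of all peaks) at 4 genes (1.65%, against 1.96% and 1.70% of genes), Adamts5 and Mmp16 with 5 each, Col8a1 with 2 and Adamts9 with 1. Mmp16 encodes a membrane-type matrix metalloproteinase, and its strongest peak had values of 9.37 and 7.42. No gene desert peak was assigned to a gene on the list of contractile and SRF cofactor genes of SMCs. A count of 0 of 643 allows a share of up to 0.467% (3 counts), and the share was 0.212% of distal intergenic and 0.386% of all peaks, so a lower share was not detectable. Unnamed or noncoding gene models took 205 gene desert peaks (31.9%), against 25.4% of distal intergenic and 17.7% of all peaks, at 83 genes (34.3%, against 21.5% and 17.3% of genes).

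Chromosome 13 had the most gene desert peaks, 65 or 7.68% of its peaks. The share was highest on chromosome 12, with 50 (8.56%), and lowest on chromosome 1, with 30 (2.12%). The X chromosome had 4 (4.30%).

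Motifs near the summits were counted to describe the sequence of the peaks, and the same number of positions centred 1000 bp away on both sides served as flanks. The AP-1 motif lay within 100 bp of the summit at 98 gene desert peaks (15.2%, 95% Wilson interval 12.7% to 18.2%), against 14.3% of all peaks. It lay in the flanks of 17 (2.64%, 1.66% to 4.19%), against 3.95% of all peaks. The TEAD motif lay near the summit at 57 (8.86%, 6.91% to 11.3%), against 7.45% of all peaks, and in the flanks of 19 (2.95%, 1.90% to 4.57%). Both motifs were thus more frequent at summits than in the flanks of the same peaks, and the gene desert shares were near those of the whole list. They were also near those of distal intergenic peaks closer to genes, where the AP-1 share was 17.9% up to 20 kb, 15.7% from 20 kb to 100 kb and 16.1% from 100 kb to 300 kb. In those bins the TEAD share was 7.83%, 7.07% and 8.23%. The 2 motifs occurred together at 11 gene desert peaks (1.71%, against 1.03% of all peaks), and 144 (22.4%, against 20.7%) had at least 1 of them.

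**Figure D4:**
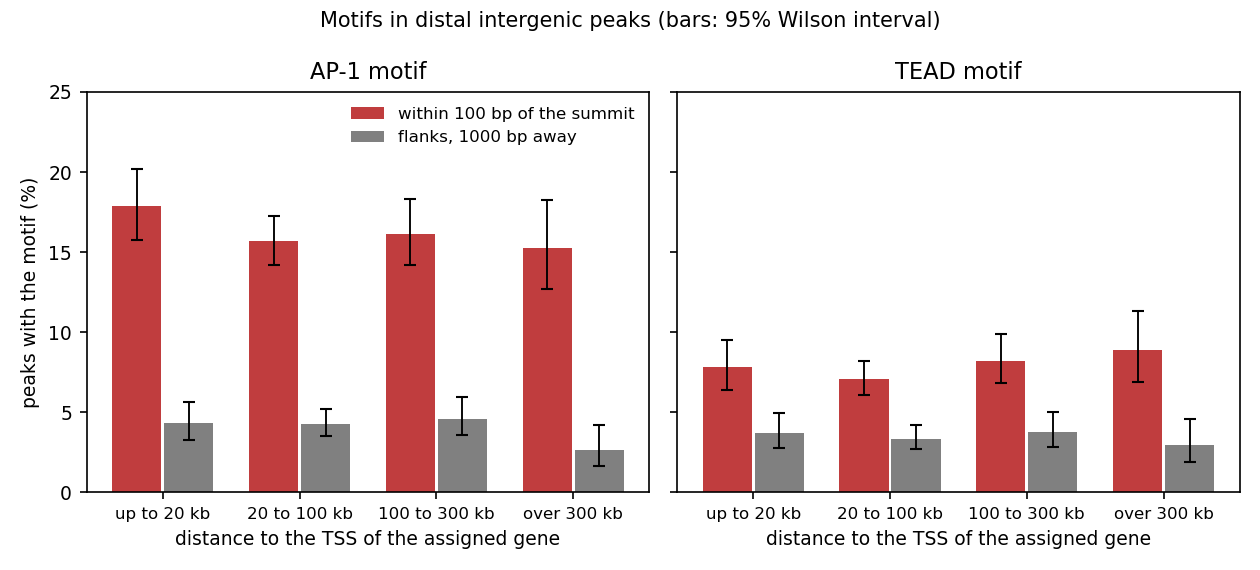
Percentage of distal intergenic peaks (vertical axis) with an AP-1 motif (left) or a TEAD motif (right) within 100 bp of the summit in red and in the flanks 1000 bp away in grey, by distance to the assigned TSS (horizontal axis), with 95% Wilson intervals as bars. Over 300 kb the AP-1 bars are at 15.2% and 2.64% and the TEAD bars at 8.86% and 2.95%.

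Within the searched 100 bp, the median distance to the summit was 40.5 bp for AP-1, with 59 of the 98 within 50 bp, and 34 bp for TEAD, with 41 of the 57 within 50 bp. The search itself limits these distances, and within 200 bp the AP-1 share was 29.9% and the TEAD share 13.997%. Of the sequences shown above, that at Dipk2a lay 11 bp and that at Gm11217 18 bp from the summit, while that at Gm29683 lay 97 bp away. Peaks with an AP-1 motif had a median matched value of 5.84, against 5.42 without one. In the first-listed replicate these medians were 7.44 and 6.92, and in the second-listed 6.88 and 6.39. For TEAD they were 5.70 with the motif and 5.46 without. The AP-1 share was 20.1% (14.6% to 27.03%) in the 159 gene desert peaks above the upper quartile of the matched value and 10.9% (7.10% to 16.4%) in the 174 up to the lower quartile. From the lower quartile to the median it was 17.4%, and from there to the upper quartile 13.04%, so it did not rise at each step. Of the 22 peaks with an IDR of at most 0.05, 4 had an AP-1 motif (18.2%, 7.31% to 38.5%) and 3 a TEAD motif (13.6%, 4.75% to 33.3%). Beyond 1 Mb, 4 of the 37 peaks had an AP-1 motif (10.8%, 4.29% to 24.7%).

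Other motifs were counted in the same way. TTTCAT or TTTCCT, a reading of a sequence that the study names, lay near 47.6% of gene desert summits and in 46.7% of flanks, and TTTCT or TTTAT near 89.9% and in 91.1%. Over all peaks these lay near 43.1% and 82.8% of summits. The CArG box lay near 6 summits (0.933%, against 1.41% of all peaks) and in 8 flanks (1.24%). The forkhead motif TGTTTAC lay near 31 summits (4.82%, against 3.54%) and in 23 flanks (3.58%), and TGGGAA, the core that RBPJ binds, near 17.9% (against 19.9%) and in 15.6%. For each of these the interval of the summit share held the flank share. The TEAD core GGAATG, chosen after values were seen and contained in the longer TEAD motif, lay near 21.3% of summits (against 19.03% of all peaks) and in 10.3% of flanks. A match is a run of letters and not a shown binding site, and the absence of a match says only that the letters were not in the window.

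The sequence at gene desert summits was poor in G and C. The median GC content within 100 bp was 40.3%, against 43.8% over all peaks, and it fell with distance in the distal intergenic bins from 44.3% to 43.3%, 41.8% and 40.3%. It was still higher at the summit than in the flanks of the same peak at 425 gene desert peaks (66.1%, against 58.4% of all peaks), where the median of the flanks was 37.6%. No CpG was present within 100 bp at 210 summits (32.7%, against 19.3% of all peaks). Repeat-masked bases made up a median of 11.4% of these windows and 21.8% of the flanks. The peaks had a median width of 577 bp, against 600 bp over all peaks, ran from 154 bp to 3198 bp, and covered 0.454 Mb. Wide peaks of at least 1000 bp held AP-1 near the summit in 19.2% of 156 cases (13.8% to 26.1%), and those under 400 bp in 8.02% of 187 (4.92% to 12.8%).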

How the data were processed

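The authors aligned reads to mm10 with BWA at a mapping quality of at least 13 and ran MACS2 on every PRDM6 ChIP library with the matching input as control, at a p-value under 0.001. They then matched both replicates by IDR. The deposited list gave −log10 p-values per replicate, the IDR on a −log10 scale and a scaled IDR score (540 for 0.05, 830 for 0.01), and named replicates only by order, so which sample was listed first is not known. It held no value of the Input group and no read totals. The deposited annotation gave the assigned gene and its TSS distance, and its column headed as a q-value held the second-listed −log10 p-value.

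From these, members were taken by the distance rule. Gaps lay between GENCODE M21 protein-coding genes, and sequence came from GRCm38. Fragment heights were recovered from p-values within 0.0002 of a Poisson tail. Motif search, clustering and height recovery were tested on simulated data. Named were the 10 strongest peaks with ties, those with an IDR of at most 0.01, the 10 genes and 5 clusters with the most peaks, the 3 farthest and those at the limit, and up to 4 genes a list. Single deserts and peaks beyond that rule (the gaps with 10 or more, the strongest peak of a named gene, Gm6634, Dipk2a) were chosen after values were seen. The peaks, the gene lists and the motifs were chosen with earlier results of these data known, so no list is independent support. No test between groups was made. Alternatives were other distance, IDR, window, flank and joining limits, each replicate alone, and parts of the genome left out. The tools were SciPy 1.17.1, matplotlib 3.10.9, pandas 2.3.3 and NumPy 2.4.6 under Python 3.11.15.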

Additional observations from a re-analysis of the deposited data

How the results depend on the processing

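The number of gene desert peaks moved with the rule, to 1015, 403 and 263 at limits of 200 kb, 400 kb and 500 kb, with 390, 151 and 102 genes. The IDR limit of 0.05 kept 22 peaks and 22 genes, and with TSSs of all GENCODE genes 21 peaks, as against 927 with those of protein-coding genes. Joining up to 20 kb apart left 43 clusters. The share with a reproducible peak was 0.622% at an IDR limit of 0.01 and 5.44% at 0.1. The AP-1 share was 9.18% within 50 bp and 29.9% within 200 bp of the summit, and the TEAD share 6.38% and 13.997%. Such a share can only rise as the window widens, and the size of the rise was not tested. Over the 22 peaks within the IDR limit of 0.05, the TEAD share was 13.6%. With each replicate alone, the median −log10 p ran from 6.39 to 6.92, above the matched value because that is the smaller of the pair, and the AP-1 share ran from 12.4% to 13.5%. The cause of the lower AP-1 share was not tested. The other 26 of 45 alternatives left shares and medians within their intervals or spread and counts within 1.5 times, 2 sets of them (without peaks in a transcript, without chromosome 13) chosen after seeing the data. No paired analysis was possible because the list held no value of the Input group to set against the PRDM6 ChIP group, and both ChIP replicates were compared only with each other. The list gave no read totals, so what depth limits was not tested.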
